A study of Mus musculus with 4 samples.

Results

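Chemokine and chemokine receptor genes were examined in 4 populations of mouse intestinal tumour cells, taken as all genes whose symbol begins with Ccl, Cxcl, Cx3cl, Xcl, Ccr, Cxcr, Cx3cr or Xcr directly followed by a digit. The arrays had a named probe for 54 such genes among 22911 genes in all, of which 35 were ligands and 19 were receptors. Another 9 genes with such symbols in the RefSeq gene table had no named probe, among them Cxcl11, Ccl27b and the copies Ccl21b, Ccl21c and Ccl21d.

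All 4 populations came from mice of the genotype Lgr5CreERT2/+; Ctnnb1lox(ex3)/ox(ex3), as the labels spell it, and had received tamoxifen 14 days earlier. In this model a tamoxifen-dependent Cre made from the Lgr5 gene, a marker of crypt stem cells, removes the floxed exon of Ctnnb1, which yields a stabilised beta-catenin. Recombination therefore begins in Lgr5-expressing cells, and no population from mice without the allele was among the samples. Tumour cells carrying the epithelial surface protein EpCAM were sorted by Lgr5 and by a tuft cell marker, IL17RB, a receptor for interleukin 25, so that each Lgr5 class (Lgr5+ or Lgr5-) was split into tuft marker+ and tuft marker- cells. The labels name no marker by which blood or stromal cells were removed, and the number of animals behind each sort is not given there. Each population was read on 1 one-colour Agilent array from 13 ng of total RNA, so there were no replicates, nothing was tested and no p-value is given.

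Chemokines are small secreted proteins that bind G protein-coupled receptors on leukocytes and other cells and direct their migration. CXC ligands such as Cxcl1 and Cxcl2 act through Cxcr2 and recruit neutrophils, the interferon-inducible ligands Cxcl9 and Cxcl10 act through Cxcr3 on T and NK cells, and inflammatory CC ligands such as Ccl3 act through Ccr1 and related receptors on monocytes and macrophages. In the intestine, epithelial cells make Ccl25, Ccl28, Ccl20 and Cx3cl1, which position lymphocytes and mononuclear phagocytes in the mucosa.

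A level is the log2 signal of the gene's brightest probe minus the array's 75th percentile, so 0 is the 75th percentile of that array. Levels were not compared between genes, because probes differ in response. Where values of both Lgr5 classes are given, Lgr5+ comes first. A difference is the log2 level of one population minus that of another, and its error (±) is the scanner software's own error for the spots, which does not cover variation between animals, sorts or labelling. Where the lower value was not well above background, the difference is given as "at least" (or "or lower" where negative). It was taken against the value read there or the lowest detected level of that array, whichever was higher. With sorted populations read in bulk, fewer cells of a type and less RNA per cell cannot be told apart.

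The sort genes followed their labels. Il17rb stood at -0.38 and 0.12 on the tuft marker+ arrays, at -3.13 on the Lgr5+ tuft marker- array and not well above background on the Lgr5- tuft marker- array. Lgr5 stood at -0.78 and -0.80 on the Lgr5+ arrays, at -3.19 on the Lgr5- tuft marker- array and not well above background on the Lgr5- tuft marker+ array. Epcam lay between 4.52 and 5.56 on the 4 arrays. Between 60.2% and 69.0% of spots were well above background, and the Lgr5+ tuft marker+ array had the fewest.

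Of the 54 genes, 47 were well above background on at least 1 array, against 81.4% of all genes, and 24 were so on all 4 arrays, against 60.7%. The Lgr5- tuft marker+ array had the most, 43 (79.6%), where 74.9% of all genes were well above background. The other arrays had 34 or 35 (63.0% to 64.8%), where 66.9% to 73.7% of all genes were. Ccl1, Ccl22, Cxcl3, Xcl1, Ccr1l1, Cxcr3 and Cxcr5 were not well above background on any array. Of the 24 genes measured on all 4 arrays, 15 were highest on the Lgr5- tuft marker+ array, where 29.8% of all such genes were.

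**Figure D1:**
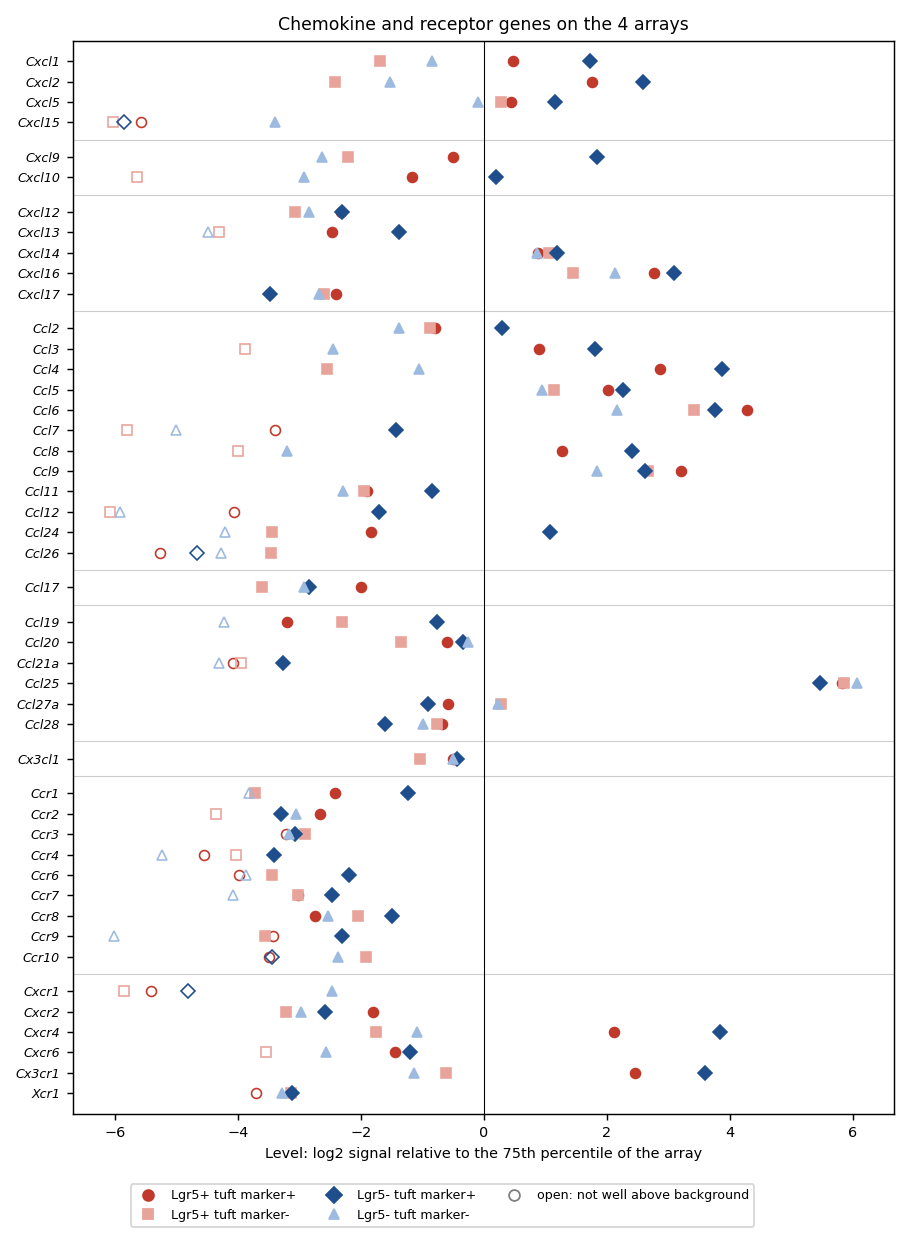
Level of each reported chemokine and receptor gene well above background on at least 1 array (x axis: log2 signal minus the array's 75th percentile; 1 point per array; open points are not well above background), grouped by role. For Cxcl2, Ccl4, Cxcr4 and Cx3cr1 both tuft marker+ points lie to the right of both tuft marker- points, while the 4 points of Ccl25 lie together between 5.47 and 6.07.

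The first comparison asked how tuft marker+ cells differed from tuft marker- cells, within Lgr5+ and within Lgr5- cells, and these pairs share no array. Chemokine and receptor genes were mostly higher in the tuft marker+ cells. Within Lgr5+ cells, 18 of 41 measured genes were at least 2-fold higher, against 10.5% of all genes, and 1 was at least 2-fold lower, against 8.23%. Within Lgr5- cells, 26 of 46 were higher, against 16.5% of all genes, and 3 were lower, against 12.3%. Their median difference was 0.87 within Lgr5+ and 1.29 within Lgr5-, beside -0.02 and 0.08 over all genes measured. A 4-fold or larger excess was seen for 10 genes within Lgr5+, against 2.99% of all genes, and for 15 within Lgr5-, against 4.35%. With normexp background correction and its offset, 11 and 15 genes were at least 2-fold higher, against 3.81% and 5.31% of all genes.

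Counting genes that passed in both pairs, 14 of 40 were higher by 2-fold or more, against 4.82% of all genes measured in both. Among them were the ligands Cxcl1, Cxcl2, Cxcl9, Cxcl10, Cxcl13, Ccl3, Ccl4, Ccl8 and Ccl24 and the receptors Ccr1, Cxcr4, Cxcr6 and Cx3cr1. Of them, 9 were at least 4-fold higher in both, against 1.98%. The receptor Ccr10 alone was at least 2-fold lower in both, where 1.44% of all genes were. Over the 24 genes measured on all 4 arrays, the differences in the 2 pairs were correlated across genes with Pearson's r = 0.83 and Spearman's rho = 0.66, beside 0.21 and -0.0063 over 13918 genes. Genes of a family are not independent points, and all values come from the same slide.

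**Figure D2:**
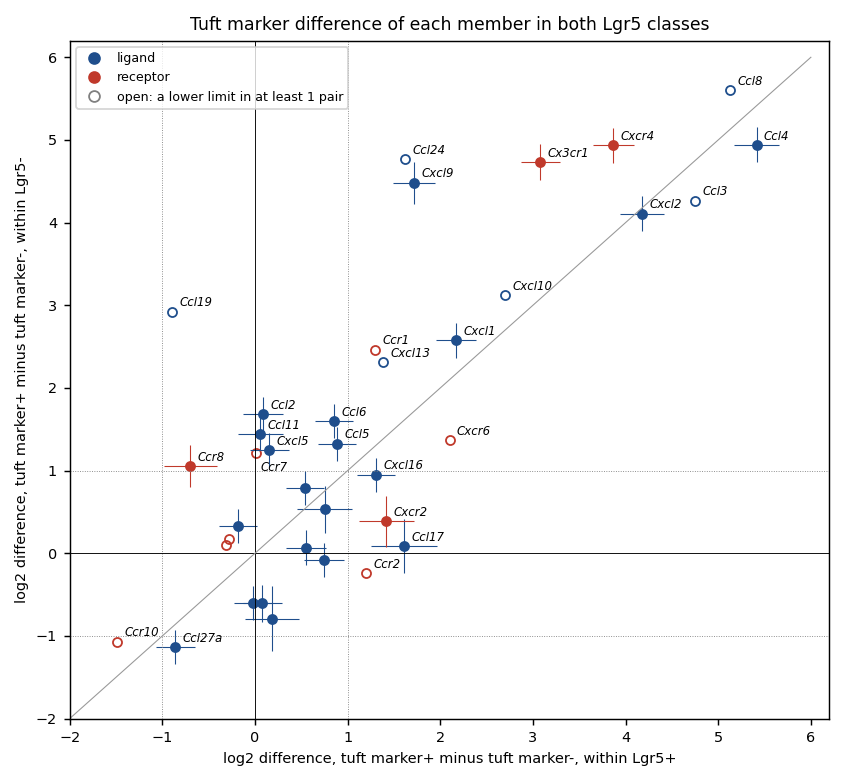
Tuft marker difference (tuft marker+ minus tuft marker-, log2) of each reported gene within Lgr5+ cells (x axis) and within Lgr5- cells (y axis), with blue for ligands, red for receptors, bars for the scanner's spot error and open points where a value is a lower limit; genes with a value in both pairs and at least 2-fold apart in either are named. Ccl4, Cxcl2, Cxcr4 and Cx3cr1 lie in the upper right, and Ccl19 lies at -0.89 on the x axis and at least 2.92 on the y axis.

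Among the neutrophil-attracting CXC ligands, Cxcl2 stood at 1.77 and 2.58 on the tuft marker+ arrays and at -2.41 and -1.52 on the tuft marker- arrays. The 2 tuft marker+ values were thus both above the 2 others, by 4.18 ± 0.23 (18.1-fold) within Lgr5+ and 4.11 ± 0.22 (17.2-fold) within Lgr5-. Its neighbour Cxcl1 stood at 0.48 and 1.74 on the tuft marker+ arrays and at -1.69 and -0.84 on the tuft marker- arrays, a difference of 2.17 ± 0.22 and 2.57 ± 0.21. Cxcl5, a ligand of the same receptor that epithelial cells can make, differed by 0.16 ± 0.21 within Lgr5+ and 1.25 ± 0.21 within Lgr5-. Cxcl15 was detected at -3.39 on the Lgr5- tuft marker- array alone. Cxcr2, their receptor, was higher by 1.42 ± 0.29 within Lgr5+ and differed by 0.39 ± 0.31 within Lgr5-.

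The stretches just before the start sites of Cxcl1, Cxcl2 and Cxcl3 are shown because these neighbours share a motif and differ in detection, and that of Cxcl10 because it joins 2 motifs. The sequences are those of RefSeq for GRCm38.p6, 250 bases before the start site, written on the gene's strand, with capitals for the motifs found. They are Cxcl1 at chr5:90890995-90891244 (+), Cxcl2 at chr5:90903649-90903898 (+), Cxcl3 at chr5:90785851-90786100 (+) and Cxcl10 at chr5:92348890-92349139 (-).
Cxcl1: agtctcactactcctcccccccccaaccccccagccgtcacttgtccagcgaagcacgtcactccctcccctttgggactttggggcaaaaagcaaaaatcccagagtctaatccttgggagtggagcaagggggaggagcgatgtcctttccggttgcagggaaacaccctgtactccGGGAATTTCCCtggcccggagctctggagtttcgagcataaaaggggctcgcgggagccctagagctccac
Cxcl2: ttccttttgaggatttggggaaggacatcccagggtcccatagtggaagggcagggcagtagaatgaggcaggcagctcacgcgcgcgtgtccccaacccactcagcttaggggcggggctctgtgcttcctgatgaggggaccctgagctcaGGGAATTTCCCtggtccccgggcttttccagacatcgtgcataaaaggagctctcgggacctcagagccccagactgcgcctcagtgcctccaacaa
Cxcl3: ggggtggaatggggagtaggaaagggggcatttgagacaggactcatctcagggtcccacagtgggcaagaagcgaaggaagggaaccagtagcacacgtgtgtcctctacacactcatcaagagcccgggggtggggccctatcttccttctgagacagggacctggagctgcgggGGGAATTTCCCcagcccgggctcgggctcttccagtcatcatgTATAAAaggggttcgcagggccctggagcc
Cxcl10: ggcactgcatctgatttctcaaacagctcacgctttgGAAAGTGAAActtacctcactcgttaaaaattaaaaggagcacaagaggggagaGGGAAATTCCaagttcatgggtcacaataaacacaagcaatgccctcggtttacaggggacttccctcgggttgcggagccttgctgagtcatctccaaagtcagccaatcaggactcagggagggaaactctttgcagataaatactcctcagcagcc

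The motif made of GGGA and TTCC with any 2 bases between them, a form of the NF-kB element, was searched on both strands of windows from 250 bases before to 50 after each start. It occurred in 6 of the 40 chemokine and receptor genes in the promoter table (Cxcl1, Cxcl2, Cxcl3, Cxcl10, Ccl1 and Ccr3), beside 1.63% of 27025 genes. In Cxcl1, Cxcl2 and Cxcl3 both strands held a match, and the matches overlapped, at -71 to -61, -97 to -87 and -73 to -63 from the start. Cxcl3 and Ccl1, which hold the motif, were not detected on any array, while Cxcl1, Cxcl2 and Cxcl10 were higher in both tuft marker pairs. A pair of GAAA runs with any 2 bases between them, a form of the interferon response element, occurred in 3 of 40 (Cxcl10, Ccl19 and Cxcl14), beside 3.99% of all genes. TATAAA occurred in 12 of 40, beside 15.7%. Of the 14 genes higher in both pairs, 11 were in the table, and 3, 1 and 4 of them held these motifs. A match is a run of letters and shows no binding.

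The interferon-inducible ligands were both higher in tuft marker+ cells. Cxcl9 stood at -0.49 and 1.85 on the tuft marker+ arrays and at -2.21 and -2.63 on the tuft marker- arrays. Its highest value was that of Lgr5- tuft marker+ cells, and the difference was 1.72 ± 0.23 (3.29-fold) within Lgr5+ and 4.48 ± 0.25 (22.3-fold) within Lgr5-. Cxcl10 stood at -1.16 and 0.20 on the tuft marker+ arrays and at -2.92 on the Lgr5- tuft marker- array, and was not well above background on the Lgr5+ tuft marker- array. It was higher by at least 2.70 within Lgr5+ and by 3.12 ± 0.28 within Lgr5-. Their receptor Cxcr3 was not detected on any array.

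The inflammatory CC ligands Ccl3, Ccl4 and Ccl8 were all higher in tuft marker+ cells, in both pairs. Ccl4 stood at 2.87 and 3.88 on the tuft marker+ arrays and at -2.55 and -1.06 on the tuft marker- arrays, higher by 5.42 ± 0.24 (42.7-fold) and 4.94 ± 0.21 (30.7-fold). A further probe of Ccl4 gave 4.47 and 4.61. Ccl3, which shares receptors with Ccl4, stood at 0.89 and 1.82 on the tuft marker+ arrays and at -2.45 on the Lgr5- tuft marker- array, and was not well above background on the Lgr5+ tuft marker- array. Its difference was at least 4.75 within Lgr5+ and 4.26 ± 0.25 (19.2-fold) within Lgr5-. Ccl8, encoded in the same cluster as Ccl2, stood at 1.27 and 2.41 on the tuft marker+ arrays and at -3.20 on the Lgr5- tuft marker- array, and was not well above background on the Lgr5+ tuft marker- array. It was higher by at least 5.13 (34.9-fold) within Lgr5+ and by 5.60 ± 0.32 (48.7-fold) within Lgr5-.

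Ccl24, an eosinophil attractant, stood at -1.82 and 1.08 on the tuft marker+ arrays and at -3.44 on the Lgr5+ tuft marker- array, and was not well above background on the Lgr5- tuft marker- array. Its difference was 1.62 ± 0.32 (3.07-fold) within Lgr5+ and at least 4.77 (27.2-fold) within Lgr5-. Ccl7 and Ccl12, monocyte attractants encoded near Ccl2, were well above background on the Lgr5- tuft marker+ array alone, at -1.42 and -1.71, and Ccl21a was so at -3.26. Counted over all probes of a gene, these were 3 of 47 detected genes, against 3.91% of all detected genes. The probe shown for Ccr4 was also well above background on that array alone, at -3.42, but another of its probes was so on the Lgr5- tuft marker- array. Within Lgr5- cells Ccl7 was higher by at least 2.26 and Ccl12 by at least 1.98.

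Other CC ligands were at least 2-fold higher within Lgr5- cells and not within Lgr5+ cells, although the difference between the pairs was not tested. Ccl2, the main ligand of Ccr2, stood at -0.78 and 0.30 on the tuft marker+ arrays and at -0.87 and -1.38 on the tuft marker- arrays, so that 3 of the arrays lay close together and Lgr5- tuft marker+ cells were above them. It differed by 0.09 ± 0.21 within Lgr5+ and 1.68 ± 0.21 within Lgr5-. Ccl11, another eosinophil attractant, differed by 0.05 ± 0.24 and 1.44 ± 0.24. Ccl5, an attractant of T cells and monocytes, differed by 0.89 ± 0.20 and 1.32 ± 0.20. Ccl26 was seen on the Lgr5+ tuft marker- array alone, at -3.46.

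Ccl6 and Ccl9 had high signals on all 4 arrays. Ccl6 stood at 4.28 and 3.77 on the tuft marker+ arrays and at 3.43 and 2.17 on the tuft marker- arrays, higher by 0.85 ± 0.20 and 1.60 ± 0.20. Ccl9 stood at 3.21 and 2.63 on the tuft marker+ arrays and at 2.67 and 1.84 on the tuft marker- arrays, so that its values in the groups overlapped. Its differences were 0.54 ± 0.20 and 0.79 ± 0.20. Ccl17, a ligand of Ccr4, was higher by 1.61 ± 0.36 within Lgr5+ and differed by 0.08 ± 0.33 within Lgr5-.

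The homeostatic and other CXC ligands had median differences of 0.75 within Lgr5+ and 0.53 within Lgr5-, with limits entered as values. Cxcl16, a transmembrane chemokine and the ligand of Cxcr6, stood at 2.77 and 3.09 on the tuft marker+ arrays and at 1.46 and 2.14 on the tuft marker- arrays. Both tuft marker+ values were higher, by 1.31 ± 0.20 (2.48-fold) within Lgr5+ and 0.95 ± 0.20 (1.93-fold) within Lgr5-, and its other probe gave 1.79 and 2.02. Cxcl13, a B cell attractant, stood at -2.47 and -1.37 on the tuft marker+ arrays and was not well above background on the tuft marker- arrays, a difference of at least 1.38 and at least 2.31. Cxcl12, the ligand of Cxcr4, lay between -3.07 and -2.31 and differed by 0.75 ± 0.30 and 0.53 ± 0.29 with the probe shown. Its other probe gave -0.71 or lower within Lgr5- and no value within Lgr5+. Cxcl14 differed by -0.18 ± 0.21 and 0.33 ± 0.20 with the probe shown and by 0.13 and 2.17 with another. Cxcl17, a mucosal chemokine, differed by 0.19 ± 0.29 and -0.79 ± 0.39.

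Of the ligands of epithelial and lymphoid homing, Ccl25, Ccl28, Ccl20, Cx3cl1 and Ccl27a were not 2-fold higher in tuft marker+ cells in either pair. Ccl21a was higher by at least 0.43 within Lgr5-, and Ccl19 is described below. Ccl25, the gut-homing ligand of Ccr9, stood at 5.83 and 5.47 on the tuft marker+ arrays and at 5.85 and 6.07 on the tuft marker- arrays. Its differences were -0.02 ± 0.20 within Lgr5+ and -0.60 ± 0.20 within Lgr5-, and a dimmer probe gave -0.80 and -2.07. Ccl28, a ligand of Ccr10 made by mucosal epithelia, differed by 0.08 ± 0.21 and -0.61 ± 0.22 with the probe shown and by -1.11 and -0.71 with another. Ccl20, the ligand of Ccr6, differed by 0.74 ± 0.21 and -0.09 ± 0.21, and Cx3cl1, the ligand of Cx3cr1, by 0.55 ± 0.22 and 0.07 ± 0.21. Ccl27a, the other Ccr10 ligand, differed by -0.86 ± 0.21 and -1.13 ± 0.21 with the probe shown. Its other probes gave -0.33 and -0.04 within Lgr5+ but 0.56 and 0.91 within Lgr5-, and it has a near copy, Ccl27b, so its direction is uncertain.

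Ccl19, a ligand of Ccr7, stood at -3.20 on the Lgr5+ tuft marker+ array, -2.31 on the Lgr5+ tuft marker- array and -0.76 on the Lgr5- tuft marker+ array, and was not well above background on the Lgr5- tuft marker- array. The Lgr5- tuft marker+ value was the highest. Its tuft marker difference came to -0.89 ± 0.37 within Lgr5+ and at least 2.92 within Lgr5-. Ccr7 differed by 0.01 ± 0.36 and at least 1.22.

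Among the receptors, Cxcr4 and Cx3cr1 exceeded 4-fold in both pairs. Cxcr4, the receptor of Cxcl12 found on many leukocytes and tumour cells, stood at 2.11 and 3.85 on the tuft marker+ arrays and at -1.76 and -1.09 on the tuft marker- arrays. It was higher by 3.87 ± 0.22 (14.6-fold) and 4.94 ± 0.21 (30.6-fold), and by 2.94 and 4.02 with its other probe. Cx3cr1, a receptor of intestinal macrophages and monocytes, stood at 2.47 and 3.59 on the tuft marker+ arrays and at -0.61 and -1.14 on the tuft marker- arrays. It was higher by 3.08 ± 0.21 (8.46-fold) and 4.73 ± 0.21 (26.6-fold), and by 1.93 and 3.88 with its other probe.

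Ccr1, a receptor of Ccl3, stood at -2.42 and -1.22 on the tuft marker+ arrays and at -3.72 on the Lgr5+ tuft marker- array, and was not well above background on the Lgr5- tuft marker- array. It was higher by 1.30 ± 0.36 within Lgr5+ and by at least 2.46 within Lgr5-. Cxcr6, the receptor of Cxcl16, stood at -1.45 and -1.20 on the tuft marker+ arrays and at -2.57 on the Lgr5- tuft marker- array, and was not well above background on the Lgr5+ tuft marker- array. Its difference was at least 2.10 within Lgr5+ and 1.37 ± 0.27 within Lgr5-. Its other probe gave at least 0.60 within Lgr5- and no value within Lgr5+.

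The remaining receptors were dim and did not share a direction. Ccr8 stood at -2.74 and -1.48 on the tuft marker+ arrays and at -2.04 and -2.54 on the tuft marker- arrays, so that the groups overlapped. It differed by -0.70 ± 0.29 within Lgr5+ and 1.06 ± 0.25 within Lgr5-. Ccr10 stood at -1.92 and -2.37 on the tuft marker- arrays and was not well above background on the tuft marker+ arrays, a difference of -1.49 or lower and -1.07 or lower. Ccr2, the receptor of Ccl2, was higher by at least 1.20 within Lgr5+ and differed by -0.24 ± 0.38 within Lgr5-. Ccr6 and Ccr9, the receptors of Ccl20 and Ccl25, were higher by at least 1.49 and at least 1.38 within Lgr5- and had no defined difference within Lgr5+. Cxcr1 was detected on the Lgr5- tuft marker- array alone, at -2.46. Ccr3 differed by -0.31 or lower within Lgr5+ and 0.10 ± 0.37 within Lgr5-, and Xcr1 by -0.28 or lower and 0.18 ± 0.40. Ccr1 and Ccr1l1 are closely similar genes, and whether their probes tell them apart was not tested.

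Other genes of the chemokine system were read from lists of family members named otherwise, receptor signalling, chemokine-cutting proteases and inducers. Of 10 atypical receptors and family members named otherwise, 4 of 8 measured within Lgr5+ were at least 2-fold higher, against 10.5% of all genes. Within Lgr5- 6 of 9 were higher, against 16.5%, and 1 was lower, against 12.3%. Pf4, a platelet and macrophage CXC chemokine, was higher by at least 3.96 within Lgr5+ and by 4.60 ± 0.28 within Lgr5-, and Ccrl2, a chemerin-binding receptor, by 3.23 ± 0.27 and 3.56 ± 0.25. Rarres2, which encodes chemerin, was higher by at least 2.72 within Lgr5+ and at least 3.22 within Lgr5-. Ackr3, a scavenger of Cxcl12, was well above background on the Lgr5- tuft marker+ array alone, at -0.16, and was higher there by at least 3.52 within Lgr5-.

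Of 28 genes of chemokine receptor signalling, 11 of 26 measured within Lgr5+ were at least 2-fold higher, against 10.5% of all genes, and none lower, against 8.23%. Within Lgr5- 13 of 27 were higher, against 16.5%, and 2 lower, against 12.3%. The medians of the listed genes were 0.93 and 0.70. Plcb2, a phospholipase that also serves taste signalling in tuft cells, was higher by 4.77 ± 0.21 and 5.66 ± 0.29, and Vav1, a Rac activator, by 3.63 ± 0.20 and 4.92 ± 0.21. Plcb2 also stands in the tuft cell list.

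Of 10 proteases and sheddases that act on chemokines, 1 of 7 was higher within Lgr5+ and 3 of 9 within Lgr5-, where 10.5% and 16.5% of all genes were. Mmp12, the macrophage elastase, stood at 4.50 and 4.64 on the tuft marker+ arrays and at -3.39 and -2.81 on the tuft marker- arrays, higher by 7.89 ± 0.34 and 7.45 ± 0.29. Mmp2 and Mmp9 were higher by at least 2.60 and at least 1.76 within Lgr5-, while Ctsg differed by -0.70 or lower and Dpp4 by 0.49 ± 0.21 within Lgr5+. Of 27 NF-kB and cytokine genes that induce chemokines, 11 of 25 were higher within Lgr5+, against 10.5% of all genes. Within Lgr5- 10 of 26 were higher, against 16.5%, and 1 was lower, against 12.3%. Il1b was higher by 3.65 ± 0.21 and 3.02 ± 0.21, its antagonist Il1rn by 3.60 ± 0.23 and 3.58 ± 0.22, and Il1a by at least 2.87 and at least 3.13.

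**Figure D3:**
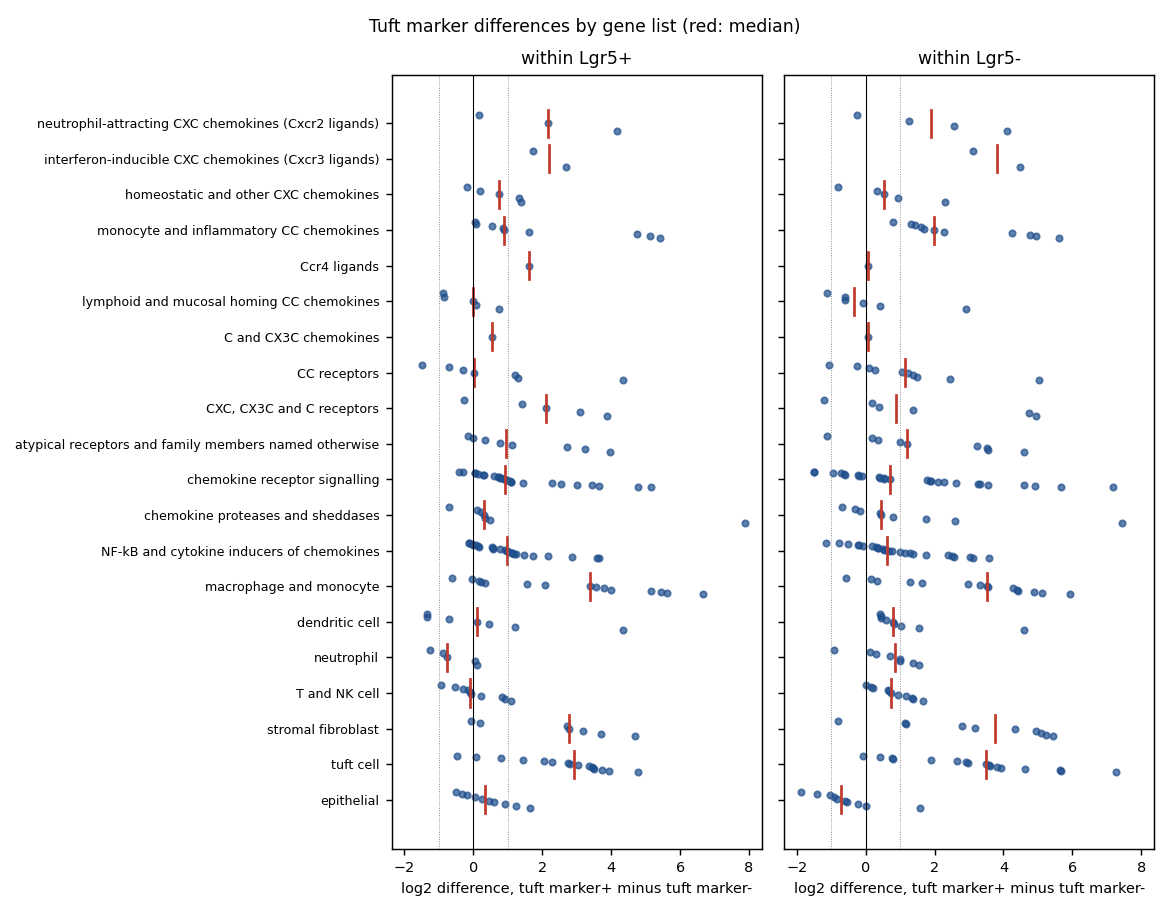
Tuft marker difference (tuft marker+ minus tuft marker-, log2) of every measured gene of each list within Lgr5+ cells (left) and within Lgr5- cells (right), with 1 point per gene and a red bar at the list's median. The macrophage and monocyte list has medians of 3.39 and 3.52 and the tuft cell list 2.92 and 3.48, while the lymphoid and mucosal homing chemokines have medians of -0.02 and -0.34.

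Markers of other cell types differed along with these genes. Of 15 macrophage and monocyte markers, 10 were at least 2-fold higher in tuft marker+ cells within Lgr5+ and 12 within Lgr5-, with medians of 3.39 and 3.52. The summed linear signal of this list, in units of the array's 75th percentile, was 81.4 and 143 on the tuft marker+ arrays and 43.5 and 47.2 on the tuft marker- arrays. Adgre1, C1qa, C1qc and Fcgr1 were not well above background on the Lgr5+ tuft marker- array, and Mrc1 was not on the Lgr5- tuft marker- array. Csf1r, in contrast, lay between 4.69 and 4.87 on the 4 arrays and differed by -0.05 and 0.15. Lyz2 differed by -0.61 within Lgr5+ and 0.34 within Lgr5-, and Ly6c2 by 0.33 and -0.57. C1qb differed by 0.22 and 1.65, and Mrc1 by 0.17 within Lgr5+. Of the stromal fibroblast markers, 5 of 7 and 9 of 10 were higher, with summed signals of 40.8 and 60.3 against 32.2 and 41.8. A sum weighs bright probes most. The stromal probe of highest signal, Acta2, differed by -0.07 and -0.80.

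Of 9 neutrophil markers with a probe, none of 7 measured within Lgr5+ and 3 of 8 within Lgr5- were at least 2-fold higher. Within Lgr5+ 1 of 7 was lower (Camp, -1.27). S100a8 was detected on the Lgr5- tuft marker+ array alone, Ngp on the Lgr5- tuft marker- array alone and Retnlg on the Lgr5+ tuft marker- array alone. Csf3r lay between 7.88 and 8.21 on the 4 arrays. Of the dendritic cell markers, 2 of 7 were higher and 2 lower within Lgr5+ (Flt3 at -1.35 and Zbtb46 at -1.34 or lower), and 3 of 9 were higher within Lgr5-. T and NK cell markers were higher for 1 of 10 and 4 of 11. The shares of all genes given above, 10.5% and 16.5% higher and 8.23% and 12.3% lower, apply to these counts as well. Of the tuft cell markers, 13 of 16 and 13 of 17 were higher, with summed signals of 91.1 and 74.1 against 10.3 and 5.01, Il17rb of the sort among them. Epithelial markers had summed signals of 272 and 218 on the tuft marker+ arrays and 165 and 211 on the tuft marker- arrays. Gene by gene, 2 of 10 were higher within Lgr5+, while within Lgr5- 1 was higher and 3 were lower (Epcam, Krt19 and Elf3), with a median of -0.73. Goblet cell markers were lower for 4 of 10 and 8 of 10, and enteroendocrine markers for 4 of 10 and 7 of 10, with 1 enteroendocrine marker higher within Lgr5+. Enterocyte markers were higher for 7 of 11 within Lgr5+ and lower for none, with a median of 1.79. Within Lgr5- 1 of 11 was higher and 4 were lower, with a median of 0.02. The same shares of all genes apply to these counts. The part of other cell types in the chemokine and receptor differences was not tested.

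The second comparison set Lgr5+ against Lgr5- cells of the same tuft marker class, and each of its pairs shares arrays with the pairs above. Within tuft marker+ cells most chemokine and receptor genes were lower in Lgr5+ cells: 18 of 43 were at least 2-fold lower, against 11.5% of all genes, and 1 was higher, against 8.97%. Their median difference was -0.77, beside -0.06 over all genes measured. Within tuft marker- cells 4 of 42 were lower, against 5.31% of all genes, and 2 were higher, against 6.56%, with a median of 0.11 beside 0.01. With arrays scaled to their medians, 9 were lower within tuft marker+ cells, against 7.39% of all genes, and 4 were higher, against 14.8%. Within tuft marker- cells 7 were then lower, against 7.17%, and 2 were higher, against 5.03%.

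In tuft marker+ cells 3 ligands were at least 4-fold lower in Lgr5+ cells, against 1.45% of all genes. Ccl24 differed by -2.90 ± 0.23 (7.49-fold lower), Ccl19 by -2.44 ± 0.35 (5.43-fold lower) and Cxcl9 by -2.34 ± 0.21 (5.07-fold lower). Ccl7 was lower by at least 3.92-fold and Ccl12 by at least 3.26-fold, since the Lgr5+ tuft marker+ array showed neither well above background. Of the receptors, Cxcr4 differed by -1.74 ± 0.20, Ccr8 by -1.25 ± 0.28, Ccr1 by -1.20 ± 0.26 and Cx3cr1 by -1.12 ± 0.20, and Ccr6 and Ccr9 were lower by at least 2.32-fold and at least 2.16-fold. Cxcl10, Cxcl1, Ccl8, Cxcl13, Ccl2, Ccl11 and Ccl4 lay between -1.36 and -1.02. Cxcl17 was higher in Lgr5+ cells by 1.07 ± 0.39, and of the other ligands Ccl28 differed by 0.92 ± 0.22 and Ccl6 by 0.51 ± 0.20. The other probe of Ccl28 gave -0.14.

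In tuft marker- cells Ccl6 was higher in Lgr5+ cells by 1.26 ± 0.20 (2.39-fold) and Ccl19 by at least 1.38. Ccl4 differed by -1.49 ± 0.25, Ccl20 by -1.09 ± 0.21, Ccl3 by -1.41 or lower and Cxcr1 by -1.39 or lower. With the probes shown, Ccl4 alone of 38 genes was at least 2-fold lower in both Lgr5 pairs, where 0.594% of all genes were. None was higher in both, where 0.74% were. Which gene passed depended on the probe. In the tuft marker+ and tuft marker- pairs the other probe of Ccl4 gave -1.06 and -0.92. That of Cxcr4 gave -2.34 and -1.26 or lower. Ccl19 was at least 2-fold apart in opposite directions, as were 2.50% of all genes. Macrophage and monocyte markers were at least 2-fold lower in Lgr5+ cells for 7 of 15 in each tuft marker class, with 2 higher in the tuft marker- class (Mrc1 by at least 1.80 and Lyz2 by 1.35), and stromal markers were so for 7 of 10 in the tuft marker+ pair but 1 of 7 in the tuft marker- pair. In the tuft marker+ pair T and NK cell markers were lower for 5 of 12, Paneth cell markers were higher for 7 of 7 and goblet cell markers for 7 of 10. The tuft marker- pair had 2 of 9, 6 of 7 and 2 of 10 in the same order. Beside these marker counts, 11.5% of all genes were lower and 8.97% higher in the tuft marker+ pair. In the tuft marker- pair 5.31% were lower and 6.56% higher. The part of these cell types in the Lgr5 differences was not tested.

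**Figure D4:**
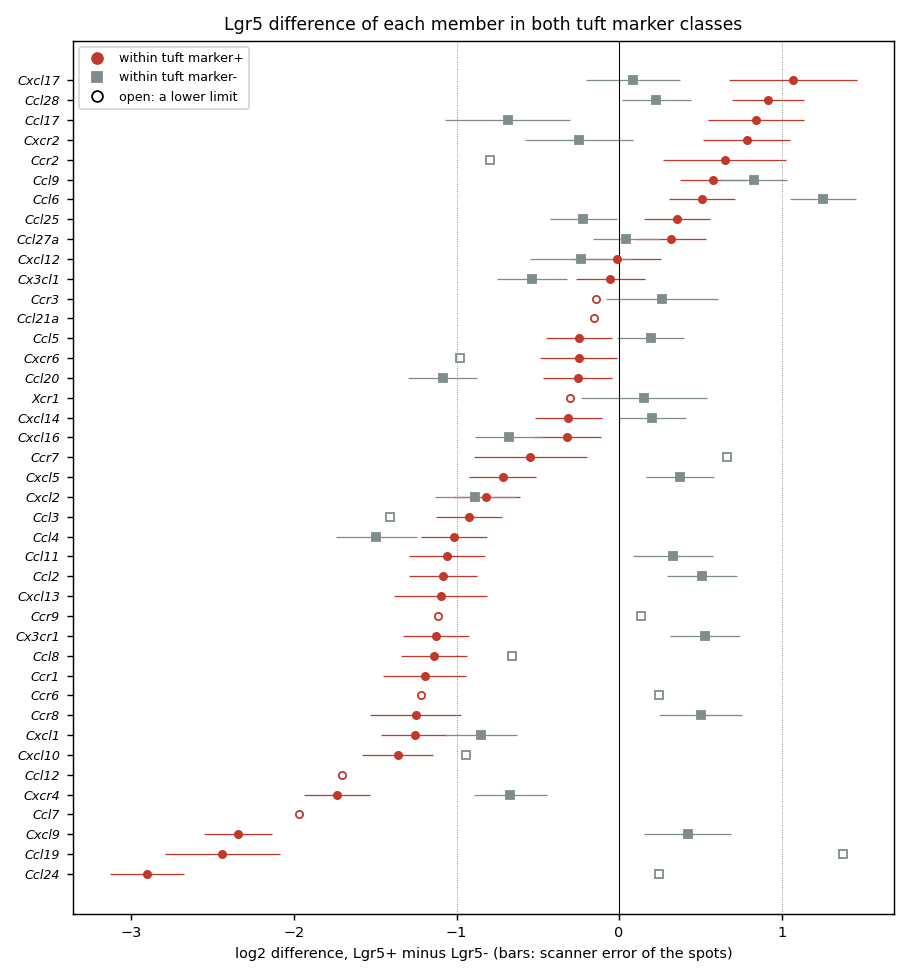
Lgr5 difference (Lgr5+ minus Lgr5-, log2) of each reported gene within tuft marker+ cells (red circles) and within tuft marker- cells (grey squares), ordered by the former, with bars for the scanner's spot error and open symbols where only a limit is given. Ccl24, Ccl19 and Cxcl9 lie furthest to the left among the circles, at -2.90, -2.44 and -2.34.

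The values nearest the 2-fold line show how counts depend on it. Within Lgr5+ cells the tuft marker difference of Ccr2, at least 1.20, lay just inside it and that of Ccl5, 0.89, just outside. Within Lgr5- cells Ccr8 at 1.06 lay inside and Cxcl16 at 0.95 outside. For the Lgr5 difference within tuft marker+ cells, Ccl4 at -1.02 lay inside and Ccl3 at -0.92 outside, which is less than their errors of 0.20 apart. Within tuft marker- cells Ccl20 at -1.09 lay inside. Cxcr6, at -0.98 or lower, was counted as outside, though a limit does not settle on which side it lay.

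Scaling moved all genes of an array together. Within Lgr5- cells, 57.2% of the genes past 2-fold in the tuft marker pair were higher, 37.1% with arrays scaled to their medians and 79.2% in the authors' deposited table. The median of all genes was then -0.16 and 0.39 and that of the chemokine and receptor genes 1.05 and 1.62. For the Lgr5 pairs, 43.9% were higher within tuft marker+ cells, 66.7% with median scaling and 28.0% in the authors' deposited table. Within tuft marker- cells 55.2% were higher, and 41.2% with median scaling.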

How the data were processed

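Total RNA of 4 sorted mouse tumour cell populations was read on 1 one-colour Agilent array each, all on 1 slide, so slide and population were not confounded. Per the file headers, Feature Extraction 12.0.3.1 subtracted the background from the deposited intensity and detrended it within each array, without scaling between arrays (the submitters' processing notes name 11.5.1.1). The deposited flags, other than intensity, are 0 or 1 for each spot (well above background, positive and significant, outlier, saturated). The authors' deposited table holds intensity values that equal those of the scanner files times 1 constant per array (10.9 and 11.9 for the Lgr5+ and Lgr5- tuft marker+ arrays, 7.82 and 9.08 for the tuft marker- arrays), with column medians of 279, 365, 286 and 253 in that order, so its scale is linear and it is not centred by gene; the basis of the constants is unknown.

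Control and outlier spots (91 to 122 per array) were left out; no spot was saturated. The intensity was converted to log2, the array's 75th percentile subtracted and copies of a probe averaged (a probe counted as above background where no more of its copies failed than passed). Of 56605 probes, 32994 were named through their accession and the RefSeq table (GRCm38.p6), while 23611 were not. A gene was represented by its probe of highest mean intensity; 12 of the 54 genes had several probes. Values under the lowest level among probes well above background (-3.86 to -3.41) were raised to it. A gene entered a pair if above background on at least 1 of its arrays, and was counted if at least 2-fold apart.

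The genes and lists were chosen with earlier results of these data known. Values on every array were given for genes 2-fold apart in both pairs of an axis, 4-fold apart in any, or among the 5 ligands and 5 receptors of highest mean intensity; of each pathway list, the 3 largest differences per pair. The values of some genes that these rules name are not reported here, though the counts include them. Alternatives were other scalings, flags, probes and thresholds, and normexp (limma 3.58.1, R 4.3.3, offset 50) on the median spot and background signals, since no mean signal was in the files. Python 3.11.15, numpy 2.4.6, pandas 2.3.3 and matplotlib 3.10.9 were used. The calculation was tested on simulated data. Precision is limited by the number of arrays.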

Additional observations from a re-analysis of the deposited data

Results flagged for a closer look

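Several genes differed in opposite directions in the 2 pairs of an axis, each by more than 2 of its scanner errors or as a lower limit. With 1 array per population, none of these opposite directions was tested.

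Ccl19, a ligand of Ccr7, had a tuft marker difference of -0.89 (error 0.37) within Lgr5+ cells and of at least 2.92 within Lgr5- cells. With normexp these were 0.05 and at least 1.03, no longer in opposite directions. The Lgr5 difference of this gene came to -2.44 (error 0.35) in tuft marker+ and at least 1.38 in tuft marker- cells. Ccr8, a receptor of T cells, had a tuft marker difference of -0.70 (error 0.29) within Lgr5+ and 1.06 (error 0.25) within Lgr5-. Ccl2 had an Lgr5 difference of -1.08 (error 0.21) within tuft marker+ and 0.51 (error 0.22) within tuft marker-. For Cx3cr1 the Lgr5 difference was -1.12 (error 0.20) within tuft marker+ and 0.53 (error 0.22) within tuft marker- with the probe shown. The other probe of Cx3cr1 gave -2.13 within tuft marker+ and no value within tuft marker-. The tuft marker and Lgr5 differences of a gene come from the same 4 arrays, so those of Ccl19 are not separate findings.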

How the results depend on the processing

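The 52 differences of at least 2-fold in the 22 genes chosen for values on every array kept their sign in all 468 values under 9 alternatives, and 434 stayed at least 2-fold. With normexp 30 of 52 stayed so, with scaling to the array median 46, and with the other 7 alternatives 50 to 52. Of 110 counts of genes under 11 alternatives, 67 lay within 1.5 times the count given above; the others follow. The cause was not tested except for thresholds and filters, which change the count by construction. The shares of all genes also changed with the alternatives, so those of the main setting do not apply to the counts under them. Percentages in parentheses below are the shares of all genes under the same alternative. They are not given for genes lower in both pairs. Counts for both pairs were added after seeing the data.

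Tuft marker within Lgr5+: higher 18, but 11 with normexp (3.81%) and 10 at 4-fold (2.99%). Lower 1, but 0 with normexp (1.43%) and at 4-fold (0.897%). The lower count was 2 with the positive-and-significant flag (13.3%) or with no filter (12.5%), and 4 at 1.5-fold (20.4%). Within Lgr5-: higher 26, but 15 with normexp (5.31%) and at 4-fold (4.35%). Lower 3, but 0 in the authors' table (6.52%), with normexp (4.41%) and at 4-fold (1.06%). The lower count was 5 with the other flag (13.2%) or no filter (12.5%), and 6 at 1.5-fold (25.1%). In both pairs, higher 14, but 9 at 4-fold (1.98%). Lower 1, but 0 with the percentile over detected probes, in the authors' table, with normexp and at 4-fold, and 2 at 1.5-fold.

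Lgr5 within tuft marker+: higher 1, but 4 with median scaling (14.8%) and with quantile normalization (11.1%). The higher count was 0 in the authors' table (6.09%), with normexp (2.17%) and at 4-fold (0.93%). It was 2 with the other flag (9.86%) or no filter (9.3%), and 5 at 1.5-fold (21.8%). Lower 18, but 9 with median scaling (7.39%), 5 with normexp (2.21%) and 3 at 4-fold (1.45%). Within tuft marker-: higher 2, but 1 with normexp (0.765%) and 5 with the other flag (10.9%) or no filter (10.3%). The higher count was 4 at 1.5-fold (18.1%) and 0 at 4-fold (0.81%). Lower 4, but 7 with median scaling (7.17%), with the other flag (7.94%) or no filter (7.5%). The lower count was 0 with normexp (0.959%) and at 4-fold (0.588%), and 13 at 1.5-fold (15.7%).

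No paired analysis was possible because each population has 1 array. Differences of genes not well above background on the dimmer array are known only as limits, which for the receptors was 4 to 8 of 12 to 16 values per pair.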
